A study of Mus musculus with 8 samples.

Results

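Collagens are proteins of the extracellular matrix in which chains built from repeats of glycine and 2 further residues wind around each other. Genes for them were followed here in stromal cells sorted from newborn mouse bone. A gene counted as a collagen if its symbol had the form Col, a number, the letter a and a number. The rule found 42 of the 15880 genes in the expression table, out of 43 annotated symbols of that form. *Col6a4* was the symbol without an entry. By the structure of their proteins, 11 of the 42 are fibrillar, 9 are fibril-associated collagens with interrupted triple helices (FACIT), 3 form networks, 6 belong to basement membranes, 5 form beaded filaments, 1 anchors epithelia, 2 are multiplexins, 4 cross the cell membrane, and 1, *Col28a1*, stands outside these classes.

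Fibrillar collagens give bone, skin and tendon their tensile strength, and type I, a trimer of the products of *Col1a1* and *Col1a2*, is the main protein of mineralised bone. Type II and the collagens that decorate its fibrils, types IX and XI, are hallmarks of cartilage, whereas type X marks the hypertrophic cartilage that bone replaces. Type IV forms the sheet-like network of every basement membrane, including the sheaths of vessels, nerves and muscle fibres.

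The study profiled messenger RNA of marrow stroma from 1-day-old C57BL/6 pups heterozygous for Nes-Gfp, a transgene in which regulatory elements of the rat nestin gene drive green fluorescent protein (GFP). Crushed bones were digested with collagenase, cells positive for CD45, CD31 or Ter119 were gated out, and the remainder was sorted on GFP and on the surface receptor Pdgfra. This gave 4 populations, all of the same genotype, strain and age and none treated: GFP+ Pdgfra+, GFP- Pdgfra+, GFP+ Pdgfra- and GFP- Pdgfra- cells. Each population had 2 libraries of RNA amplified from 15000 to 80000 cells, each sample a pool of 3 pups, so differences between single animals cannot be seen and the spread between libraries is that between pools. GFP reports the activity of the transgene's regulatory elements in these cells and not the endogenous nestin gene as such.

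Levels are given in the deposited normalised unit, reads scaled to an effective library size of 1000000, in which a gene without reads carries the value of 0.5 reads. The 8 libraries held 3221217 to 5302762 reads, and 3 reads, the floor used here for detection, were worth 0.825 to 1.04 in this unit. The sort markers followed the gates. *Pdgfra* had values of 733 and 754 in GFP+ Pdgfra+, 839 and 794 in GFP- Pdgfra+, 18.1 and 10.4 in GFP+ Pdgfra- and 3.30 and 4.36 in GFP- Pdgfra- cells, and all 4 Pdgfra+ libraries lay above all 4 Pdgfra- libraries. *Nes*, the endogenous nestin gene, had values of 149 and 176 in GFP+ Pdgfra-, 57.6 and 72.0 in GFP+ Pdgfra+, 27.4 and 47.1 in GFP- Pdgfra+ and 3.59 and 9.08 in GFP- Pdgfra- cells. GFP+ libraries lay above GFP- libraries on either side of the Pdgfra gate, although the *Nes* difference among Pdgfra+ cells, 0.82 ± 0.34 (adjusted p = 0.213), did not pass the test.

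That test was limma on log2(value + 1), fitted to the 8 libraries together. Calls required an adjusted p of at most 0.05, by the method of Benjamini and Hochberg across the 15880 genes. Differences between populations are therefore on the log2(value + 1) scale, on which differences of scarce genes come out too small, and are followed by ± their standard error. A positive sign means higher in the GFP+ or Pdgfra+ population of the pair. An exact permutation of 2 libraries against 2 cannot give a p below 0.333, so no test of a single gene on its own was used. All p values measure only the spread between these pools. The populations are mixtures, and fewer cells of a type and less RNA per cell cannot be told apart in any value given here.

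Collagen transcripts made up very different shares of the 4 populations. Reads of the 42 genes were 11.2 and 9.23 in GFP+ Pdgfra+, 6.40 and 6.44 in GFP- Pdgfra+, 1.41 and 1.43 in GFP+ Pdgfra- and 0.174 and 0.232 in GFP- Pdgfra- cells, in percent of each library. The populations ranked in the same order in both replicates, and the libraries of any pair of populations did not overlap. The mean shares were 10.2% ± 1.40 (SD, n = 2), 6.42% ± 0.0291, 1.42% ± 0.0120 and 0.203% ± 0.0409 in that order. *Col1a1* and *Col1a2* together took 76.4 and 72.2 in GFP+ Pdgfra+, 45.9 and 42.8 in GFP- Pdgfra+, 43.3 and 35.6 in GFP+ Pdgfra- and 36.1 and 32.6 in GFP- Pdgfra- cells, in percent of collagen reads. Without *Col1a1*, the collagen with the most reads over the 8 libraries, the mean shares were 5.62%, 4.76%, 1.099% and 0.162%. Without both type I chains, a choice added after the data had been seen, they were 2.61%, 3.58%, 0.8595% and 0.134%, so the order of the Pdgfra+ populations turned, with 2.64 and 2.57% in GFP+ and 3.47 and 3.69% in GFP- libraries. Mitochondrial transcripts ran the other way, with 13.0 and 13.7 in GFP+ Pdgfra+, 14.4 and 14.5 in GFP- Pdgfra+, 24.2 and 22.2 in GFP+ Pdgfra- and 36.9 and 39.1 in GFP- Pdgfra- cells in percent of reads. Most of these reads were of *mt-Rnr2*, a ribosomal RNA gene. It took 9.52 and 10.3, 10.8 and 10.8, 17.6 and 15.6, and 27.2 and 29.1% of all reads in that order. Leaving all mitochondrial transcripts out of the total put the mean collagen shares at 11.8%, 7.51%, 1.85% and 0.329%.

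**Figure D1:**
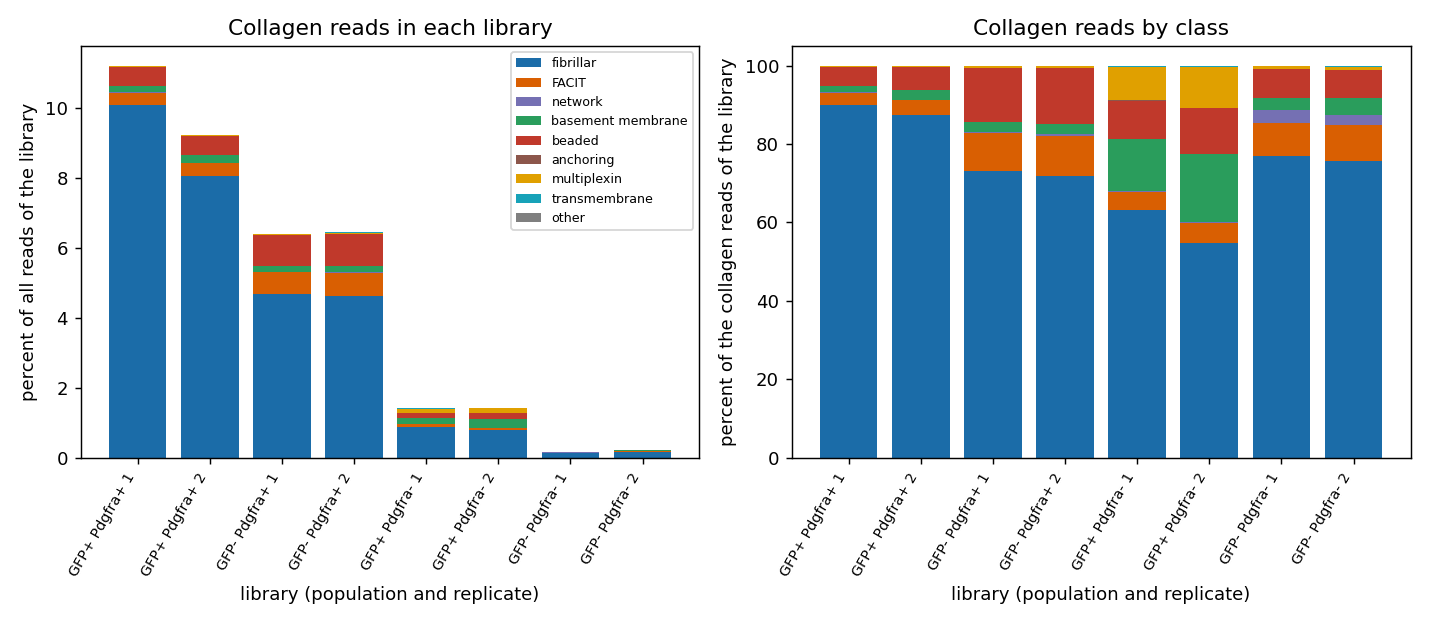
Reads of collagen genes in each of the 8 libraries, in percent of all reads (left) and by class in percent of collagen reads (right). The total is highest in GFP+ Pdgfra+ and lowest in GFP- Pdgfra- cells.

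Among all genes, *Col1a1* ranked 2 in both GFP+ Pdgfra+ libraries, 3 and 4 in GFP- Pdgfra+, 11 and 13 in GFP+ Pdgfra- and 231 and 152 in GFP- Pdgfra- cells, by value. The class make-up shifted as well. Fibrillar collagens took 89.9 and 87.3% of collagen reads in the GFP+ Pdgfra+ libraries and 73.0 and 71.8% in the GFP- Pdgfra+ libraries. In GFP+ Pdgfra- cells their share was lower, 63.2 and 54.9%, and in GFP- Pdgfra- cells it was 77.0 and 75.7%. Beaded-filament collagens were most prominent in GFP- Pdgfra+ cells, with 13.8 and 14.2% of collagen reads against 4.78 and 5.88% in GFP+ Pdgfra+ cells. Basement membrane collagens took 13.4 and 17.3% in GFP+ Pdgfra- cells and at most 4.17% in any library of the other populations, and multiplexins took 8.56 and 10.4% there and at most 0.869% elsewhere. The erythroid marker list, 7 of 8 genes measured, summed to 7541 and 13087 in GFP- Pdgfra-, 28.3 and 33.2 in GFP+ Pdgfra+, 39.5 and 31.3 in GFP- Pdgfra+ and 98.9 and 59.0 in GFP+ Pdgfra- cells. *Hbb-b1* was its most abundant gene in each library, at 4362 and 7619 in GFP- Pdgfra- cells, and only *Epor* was at 0 reads anywhere, in GFP- Pdgfra+ replicate 1. The sort had gated out Ter119-positive cells. The part of these transcripts, and of the mitochondrial ones, in the low collagen share of that population was not tested.

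By the moderated F test of limma, 40 of the 42 collagens varied over the 4 populations, beside 66% of all genes tested. *Col4a4* (adjusted p = 0.0819) and *Col4a6* (adjusted p = 0.0549), both close to the detection floor, were the exceptions. The highest population mean was in GFP- Pdgfra+ cells for 22 collagens, in GFP+ Pdgfra+ cells for 10, in GFP+ Pdgfra- cells for 8 and in GFP- Pdgfra- cells for 2, *Col4a3* and *Col10a1*. All 5 beaded-filament collagens had their highest mean in GFP- Pdgfra+ cells, whereas both multiplexins had theirs in GFP+ Pdgfra- cells. The share of all genes with their highest mean in each population was not counted, so these counts do not set collagens apart from other genes.

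**Figure D2:**
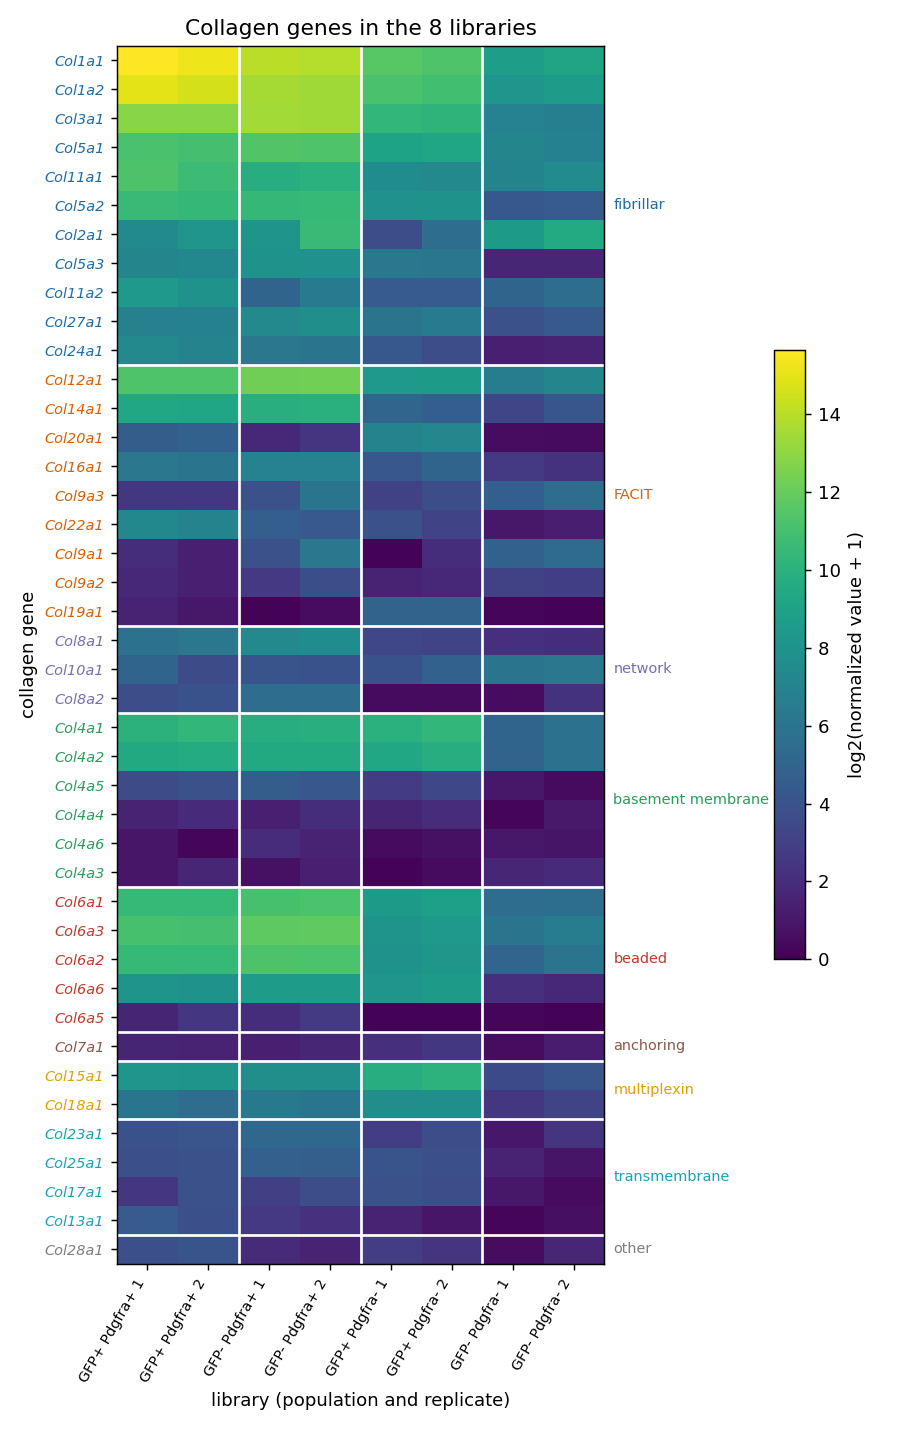
The 42 collagen genes, grouped by class, in the 8 libraries, coloured by log2(normalised value + 1). Most are bright in both Pdgfra+ populations and dark in GFP- Pdgfra- cells.

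Within Pdgfra+ cells, GFP+ cells had more type I collagen and more *Col11a1*, *Col11a2*, *Col20a1* and *Col22a1*, and less *Col12a1*, *Col8a1*, *Col6a1* and *Col6a3*. Of the 42 collagens, 9 were called higher, beside 3.22% of all genes, and 8 lower, beside 2.13%. The rise of *Col22a1*, 2.61 ± 0.30 (adjusted p = 3.71e-04), had the smallest p and *Col20a1*, 2.67 ± 0.31 (adjusted p = 4.17e-04), was the largest rise. The largest fall was that of *Col9a1*, -3.33 ± 0.71 (adjusted p = 0.0177). The fibrillar class split, with 5 of 11 higher and 2 lower. The median difference of the 42 was -0.35, beside 0.00 over all genes. With 2 libraries a group, all 8 lower calls and 4 of the 9 higher calls, those of *Col11a1*, *Col13a1*, *Col24a1* and *Col28a1*, were lost on leaving out at least 1 library. Without GFP- Pdgfra+ replicate 2, limma called 0 collagens lower (14 at an unadjusted p below 0.05) and 6 higher. Without GFP- Pdgfra+ replicate 1 it called 3 lower and 5 higher, and without GFP+ Pdgfra+ replicate 1 or 2 it called 1 or 2 lower and 5 or 7 higher. Leaving out either GFP- Pdgfra- library, which is outside the pair but in the shared estimate of spread, gave 14 lower. Voom of limma, edgeR and DESeq2 on the recovered reads gave 14, 12 and 13 lower, though not the same ones, since voom did not call *Col9a1* or *Col9a3*. A limma fit with the replicate number as a block gave 11 lower. *Col1a1*, *Col1a2*, *Col11a2*, *Col20a1* and *Col22a1* kept their calls under every alternative tried.

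Within Pdgfra- cells the GFP difference was broad and mostly upward. On the log2(value + 1) scale it was largest for *Col20a1*, *Col6a6*, *Col15a1* and *Col18a1*. Here 30 of the 42 collagens were higher in GFP+ cells, beside 30.1% of all genes, and 6 of the 42 were lower, beside 23.6%. The 6 that fell were the cartilage collagens *Col2a1*, *Col9a1*, *Col9a2*, *Col9a3* and *Col10a1* and the basement membrane chain *Col4a3*. Without GFP+ Pdgfra- replicate 1 the lower count was 2, and without GFP- Pdgfra- replicate 2 it was 3. The median difference was 2.09 for the collagens and 0.15 for all genes. Centring each library on its median moved the all-gene median to -0.30, so that 38.9% instead of 56.1% of all called genes were higher; 27 collagens were then called higher and 8 lower, with a collagen median of 1.64.

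Across the Pdgfra gate in GFP+ cells, all 11 fibrillar collagens were called higher in Pdgfra+ cells by limma, and the multiplexins with *Col19a1* and *Col20a1* were lower. The counts were 22 of the 42 collagens higher, beside 13.1% of all genes, and 4 of the 42 lower, beside 11.1%, with a median of 1.16 against -0.02. None of the 6 basement membrane collagens was called by limma, voom, edgeR or DESeq2 (0 in each), and 1 had an unadjusted p below 0.05. Leaving mitochondrial genes out moved the all-gene median to -0.30 and the share of all called genes that were higher from 54.1% to 30.9%, while the collagen counts were 21 and 5.

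In GFP- cells the Pdgfra difference reached 31 of the 42 collagens upward, beside 32.9% of all genes, and 1 of the 42 downward, *Col10a1*, beside 26.8%. The median of the 42 was 3.54 and that of all genes 0.17. All 5 beaded-filament collagens, all 4 transmembrane collagens and both multiplexins were among the higher ones. Median centring moved the all-gene median to -0.28 and the share of calls that were higher from 55.1% to 40.6%, and quantile normalisation moved them to -0.15 and 45.5%; 30 collagens were higher and 2 lower under either. The 4 comparisons share libraries in pairs, so their counts are not independent of each other.

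**Figure D3:**
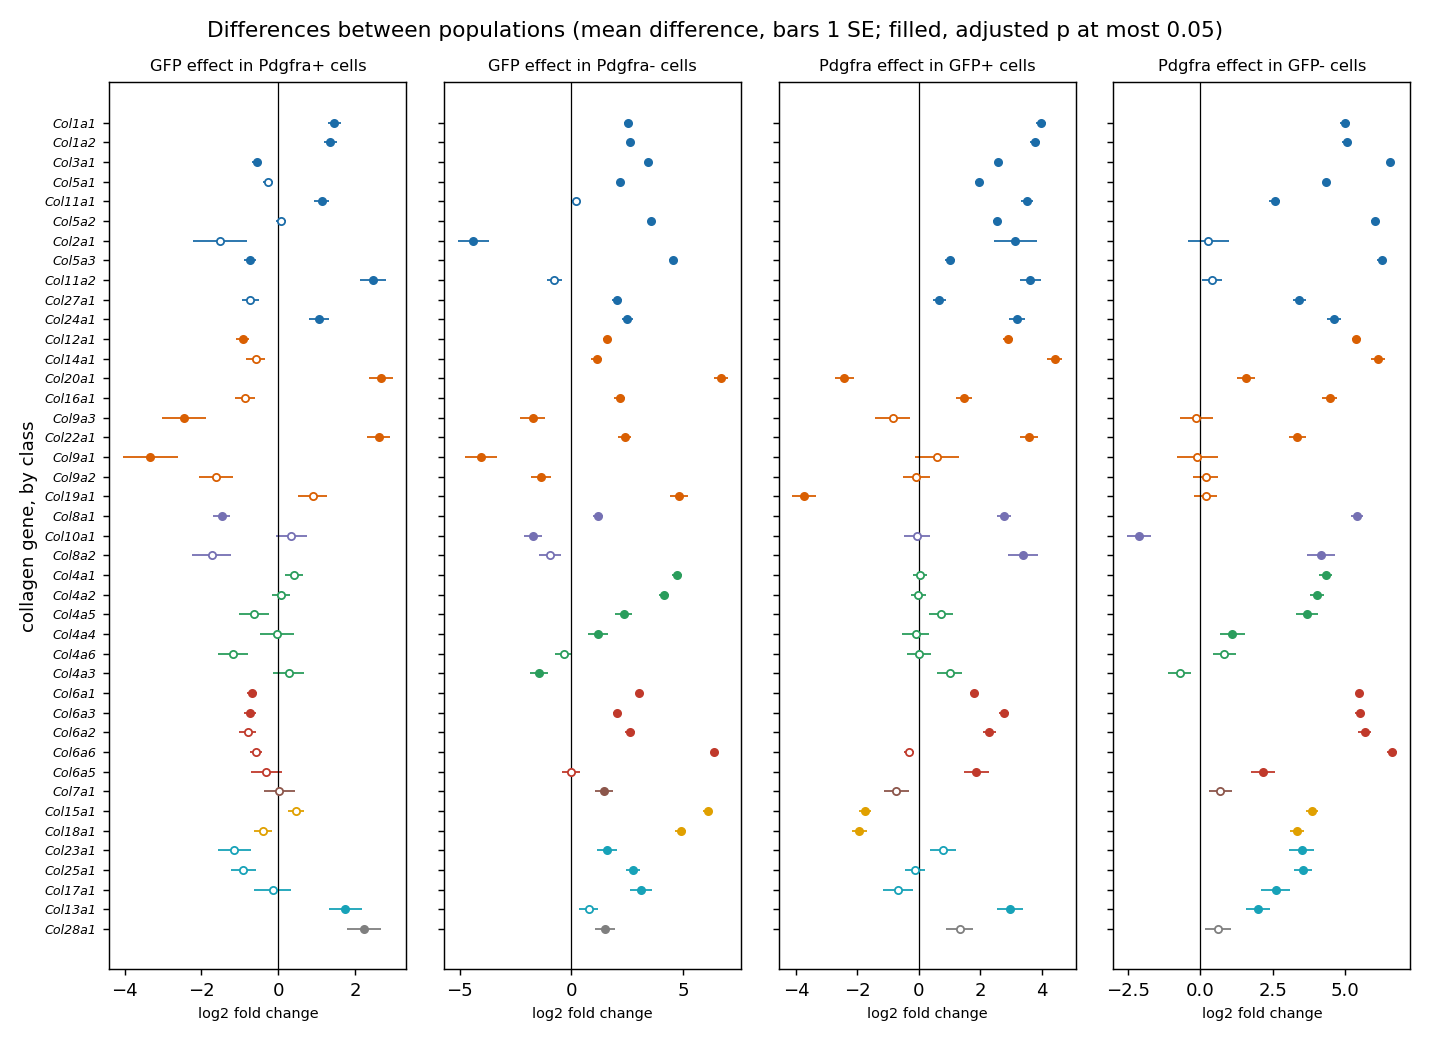
Log2 differences of the 42 collagens in the 4 comparisons, by class, with bars of 1 standard error. Filled points are called at an adjusted p of at most 0.05.

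Among fibrillar collagen genes, *Col1a1* had the highest value in every library but GFP- Pdgfra- replicate 2. There *Col2a1* (753) exceeded either type I chain taken singly. *Col1a1*, which encodes the α1 chain of type I collagen, had values of 51184 and 38311 in GFP+ Pdgfra+, 16841 and 15352 in GFP- Pdgfra+, 3099 and 2562 in GFP+ Pdgfra- and 435 and 560.2 in GFP- Pdgfra- cells. No libraries of different populations overlapped, and the lowest GFP+ Pdgfra+ library exceeded both GFP- Pdgfra+ libraries. The GFP difference was 1.46 ± 0.18 (adjusted p = 5.69e-04) within Pdgfra+ cells and 2.51 ± 0.18 (adjusted p = 1.91e-07) within Pdgfra- cells. The Pdgfra difference was 3.97 ± 0.18 (adjusted p = 6.87e-08) in GFP+ cells, among the largest rises of that comparison. *Col1a2*, the α2 chain, stood at 33169 and 25459.6 in GFP+ Pdgfra+, 11797 and 11016 in GFP- Pdgfra+, 2309.6 and 1922 in GFP+ Pdgfra- and 299 and 386 in GFP- Pdgfra- cells, in the same order as its partner. Its GFP difference within Pdgfra+ cells was 1.35 ± 0.17 (adjusted p = 6.45e-04), and its Pdgfra difference in GFP+ cells was 3.79 ± 0.17 (adjusted p = 6.87e-08).

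*Col3a1*, the chain of type III collagen, which is common in soft connective tissue and vessel walls, was ordered differently, with 11278 and 10779.5 in GFP- Pdgfra+, 7607 and 7310.5 in GFP+ Pdgfra+, 1318 and 1168 in GFP+ Pdgfra- and 122 and 106 in GFP- Pdgfra- cells. Here GFP- Pdgfra+ libraries were the highest. The GFP difference within Pdgfra+ cells, -0.56 ± 0.12 (adjusted p = 0.0184), was the smallest of the called ones; leaving out any of the 4 Pdgfra+ libraries ended the call, at adjusted p of 0.0794 to 0.159, and quantile normalisation reversed its sign to 0.04 (adjusted p = 0.904). It was not called with no trend (adjusted p = 0.194) or only the compared populations (adjusted p = 0.0508). On the other side of the gate the GFP difference was 3.44 ± 0.12 (adjusted p = 9.50e-10). In GFP- cells the Pdgfra difference reached 6.59 ± 0.12 (adjusted p = 1.42e-11).

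Type V collagen, which sits inside type I fibrils and limits their width, is encoded by *Col5a1*, *Col5a2* and *Col5a3*. *Col5a1* had values of 2692 and 2589 in GFP- Pdgfra+, 2309.6 and 2074 in GFP+ Pdgfra+, 539.6 and 594 in GFP+ Pdgfra- and 139 and 116 in GFP- Pdgfra- cells, so that the Pdgfra+ libraries lay close together and both GFP- Pdgfra+ ones were the higher. Its GFP difference within Pdgfra+ cells, -0.27 ± 0.12 (adjusted p = 0.273), was not called. *Col5a2* values were 1549 and 1363 in GFP+ Pdgfra+, 1342 and 1428 in GFP- Pdgfra+, 238 and 265 in GFP+ Pdgfra- and 18.5 and 21.8 in GFP- Pdgfra- cells. The libraries of the 2 Pdgfra+ populations overlapped, and the Pdgfra- populations were lower, by 2.53 ± 0.13 (adjusted p = 2.04e-07) in GFP+ cells. *Col5a3*, the least abundant of the trio, had 256 and 243 in GFP- Pdgfra+, 143 and 154 in GFP+ Pdgfra+, 75.6 and 70.9 in GFP+ Pdgfra- and 2.15 and 2.24 in GFP- Pdgfra- cells. GFP+ Pdgfra+ cells had less of it than GFP- Pdgfra+ cells, with a difference of -0.75 ± 0.16 (adjusted p = 0.0170), a call that was lost without any single Pdgfra+ library (adjusted p 0.0638 to 0.159) or with no trend (adjusted p = 0.0873). Among Pdgfra- cells the sign was opposite, 4.54 ± 0.16 (adjusted p = 8.97e-10).

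Type XI collagen, a relative of type V found in cartilage fibrils and in early bone, leaned the other way. *Col11a1* had values of 2447 and 1718 in GFP+ Pdgfra+, 854 and 1020.0 in GFP- Pdgfra+, 196 and 162 in GFP+ Pdgfra- and 133 and 183 in GFP- Pdgfra- cells. Both GFP+ Pdgfra+ libraries lay above all others, and the 2 Pdgfra- populations overlapped. Its GFP difference within Pdgfra+ cells was 1.13 ± 0.19 (adjusted p = 0.00518), and it missed the threshold without GFP+ Pdgfra+ replicate 1 (0.88, adjusted p = 0.0679) or GFP- Pdgfra+ replicate 1 (1.01, adjusted p = 0.0904) and with no trend (adjusted p = 0.0829). *Col11a2* stood at 338 and 254 in GFP+ Pdgfra+, 32.4 and 83.3 in GFP- Pdgfra+, 32.3 and 48.0 in GFP- Pdgfra- and 22.9 and 22.8 in GFP+ Pdgfra- cells. The GFP+ Pdgfra+ libraries were again the highest, while every other library was lower. The difference of 2.47 ± 0.34 (adjusted p = 0.00154) kept its call in every refit, and in GFP+ cells the Pdgfra difference was 3.62 ± 0.34 (adjusted p = 1.49e-05). Among GFP- cells the Pdgfra difference of *Col11a2* was 0.39 ± 0.34 (adjusted p = 0.347) and was not called.

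*Col2a1*, the chain of cartilage type II collagen, differed more between libraries of a population than any fibrillar collagen above. Its values were 273 and 1498 in GFP- Pdgfra+, 371 and 753 in GFP- Pdgfra-, 175 and 280.4 in GFP+ Pdgfra+ and 12.0 and 48.2 in GFP+ Pdgfra- cells. GFP- Pdgfra+ replicate 2 was the highest library and replicate 1 lay below both GFP- Pdgfra- libraries. The clearest contrast was among Pdgfra- cells, where GFP+ libraries were far below GFP- ones, at -4.39 ± 0.70 (adjusted p = 1.99e-04). The difference of 3.14 ± 0.70 (adjusted p = 0.00642) across the Pdgfra gate in GFP+ cells was lost without GFP+ Pdgfra+ replicate 2 (2.80, adjusted p = 0.0676) or GFP+ Pdgfra- replicate 1 (2.18, adjusted p = 0.117) and with no trend (adjusted p = 0.0503) or voom (adjusted p = 0.0528). The chondrocyte marker list holds 11 symbols, *Lect1* and *Cnmd* being names of the same gene, and 8 were measured. It summed to 451 and 728 in GFP- Pdgfra+, 181 and 237 in GFP- Pdgfra-, 142 and 149 in GFP+ Pdgfra+ and 60.9 and 51.7 in GFP+ Pdgfra- cells. *Acan* led it in every library but the GFP+ Pdgfra- ones, where *Sox9* did. *Matn1* was at 0 reads in the 4 GFP+ libraries and GFP- Pdgfra+ replicate 1, and *Cytl1* in GFP+ Pdgfra- replicate 1. Replicate 2 of GFP- Pdgfra+ cells was thus the higher for this list as well as for *Col2a1*. *Col2a1* was higher in replicate 2 of every population, and the list in replicate 2 of all but GFP+ Pdgfra- cells. The part of these transcripts in the values was not tested.

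The fibrillar class ended with a pair of minor chains. *Col24a1*, expressed in developing bone, had values of 161 and 127 in GFP+ Pdgfra+, 71.2 and 65.2 in GFP- Pdgfra+, 18.6 and 11.7 in GFP+ Pdgfra- and 1.58 and 2.00 in GFP- Pdgfra- cells, the same order as type I. Its GFP difference within Pdgfra+ cells was 1.06 ± 0.25 (adjusted p = 0.0317), and omitting any of those 4 libraries ended the call (adjusted p 0.0808 to 0.215), as did no trend (adjusted p = 0.0917) and a pseudocount of 0.1 (adjusted p = 0.0662). *Col27a1*, a cartilage-associated chain, had 165 and 219 in GFP- Pdgfra+, 111 and 119 in GFP+ Pdgfra+, 63.5 and 81.7 in GFP+ Pdgfra- and 13.6 and 20.6 in GFP- Pdgfra- cells, highest in GFP- Pdgfra+ cells. Its Pdgfra difference in GFP+ cells, 0.67 ± 0.22 (adjusted p = 0.0422), was the smallest of the 11 fibrillar calls there and was lost without any 1 of 6 libraries (adjusted p 0.0560 to 0.285), the GFP- Pdgfra- ones being the exceptions, and with no trend (adjusted p = 0.1399), quantile normalisation (0.57, adjusted p = 0.0675), mitochondrial genes left out (0.36, adjusted p = 0.224) or a pseudocount of 0.1 (adjusted p = 0.0584).

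**Figure D4:**
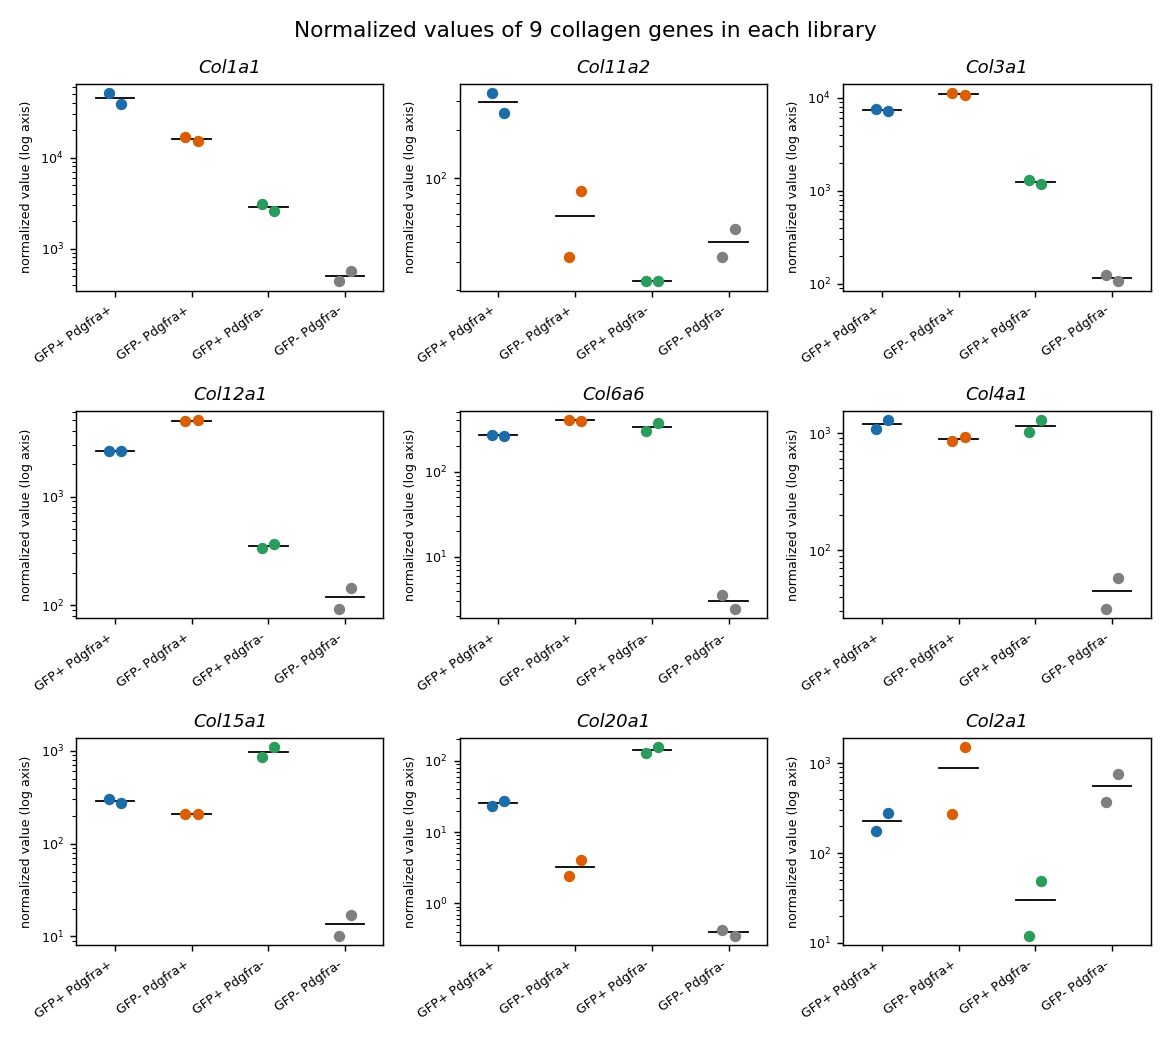
Normalised values (log axis) of 9 collagen genes, a point per library, by population. By mean, *Col1a1*, *Col11a2* and *Col4a1* are highest in GFP+ Pdgfra+ cells, though *Col4a1* overlaps with GFP+ Pdgfra- cells, and the other genes are highest elsewhere.

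The order of type I collagen was shared in part by the osteoblast marker list, of which 9 of 9 genes were measured. It summed to 10557 and 7021 in GFP+ Pdgfra+, 506 and 359.8 in GFP- Pdgfra+, 866 and 728 in GFP+ Pdgfra- and 124 and 118 in GFP- Pdgfra- cells. *Spp1* was the most abundant of the 9 in every library, with 6048 and 3915 in GFP+ Pdgfra+ cells, and *Bglap* was at 0 reads in both GFP- Pdgfra- libraries. All 9 were called higher in GFP+ than in GFP- cells on either side of the Pdgfra gate, beside 3.22% of all genes within Pdgfra+ and 30.1% within Pdgfra- cells. GFP+ Pdgfra- libraries lay above GFP- Pdgfra+ libraries for this list but below them for *Col1a1*. The tendon list, 6 of 6 genes measured, was highest where *Col3a1*, *Col12a1* and type VI chains were highest, with 3854 and 3906 in GFP- Pdgfra+, 655 and 665 in GFP+ Pdgfra+, 103 and 142 in GFP- Pdgfra- and 26.0 and 26.2 in GFP+ Pdgfra- cells. *Thbs4* led it in both Pdgfra+ populations, at 2265 and 2229 in GFP- Pdgfra+ cells, and *Kera* was at 0 reads in GFP+ Pdgfra- replicate 2. All 6 were lower in GFP+ than in GFP- cells of the Pdgfra+ gate, beside 2.13% of all genes. The part of either list in the collagen differences was not tested.

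FACIT collagens attach to the surface of fibrils, and their 9 members divided among the populations. *Col12a1*, a chain of the fibrils of tendon, ligament and periosteum, was the most abundant, with 4953 and 5022 in GFP- Pdgfra+, 2637 and 2600.3 in GFP+ Pdgfra+, 337 and 366 in GFP+ Pdgfra- and 93.5 and 145 in GFP- Pdgfra- cells. GFP- Pdgfra+ libraries were the highest and the replicates lay close together. The GFP difference was -0.93 ± 0.17 (adjusted p = 0.00714) within Pdgfra+ cells and 1.58 ± 0.17 (adjusted p = 6.91e-06) within Pdgfra- cells, so both called differences had opposite signs. The first was lost without any of the 4 Pdgfra+ libraries (adjusted p 0.0563 to 0.0902) and with no trend (adjusted p = 0.105) or quantile normalisation (-0.46, adjusted p = 0.134). *Col14a1*, a related chain, had 938 and 969.6 in GFP- Pdgfra+, 644 and 622 in GFP+ Pdgfra+, 32.9 and 24.8 in GFP+ Pdgfra- and 8.76 and 17.6 in GFP- Pdgfra- cells. Its Pdgfra difference was among the largest on both sides of the GFP gate, 4.42 ± 0.24 (adjusted p = 3.30e-07) in GFP+ cells and 6.15 ± 0.24 (adjusted p = 1.02e-09) in GFP- cells. *Col16a1* followed the same order, with 124 and 123 in GFP- Pdgfra+, 72.5 and 62.5 in GFP+ Pdgfra+, 18.1 and 31.3 in GFP+ Pdgfra- and 5.31 and 3.89 in GFP- Pdgfra- cells, and its GFP difference within Pdgfra+ cells, -0.87 ± 0.26 (adjusted p = 0.0779), was not called.

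A pair of FACIT genes rose with GFP in both gates. *Col22a1*, known from muscle-tendon junctions, had 156 and 125 in GFP+ Pdgfra+, 24.6 and 19.8 in GFP- Pdgfra+, 13.7 and 8.36 in GFP+ Pdgfra- and 1.01 and 1.53 in GFP- Pdgfra- cells. GFP+ Pdgfra+ libraries were the highest, and no populations overlapped. The GFP differences were 2.61 ± 0.30 (adjusted p = 3.71e-04) and 2.38 ± 0.30 (adjusted p = 2.81e-05) within Pdgfra+ and Pdgfra- cells, and the interaction between them, 0.23 ± 0.42 (adjusted p = 0.699), was not called. *Col20a1* was instead highest in GFP+ Pdgfra- cells, with 129 and 153 in GFP+ Pdgfra-, 23.3 and 27.5 in GFP+ Pdgfra+, 2.40 and 4.01 in GFP- Pdgfra+ and 0.431 and 0.354 in GFP- Pdgfra- cells. All GFP+ libraries exceeded all GFP- libraries. Within Pdgfra+ cells the difference was 2.67 ± 0.31 (adjusted p = 4.17e-04). With 1 read in each GFP- Pdgfra- library, the ratio of GFP+ to GFP- within Pdgfra- cells was 543 (95% interval 150.0 to 4489.7), where the interval, exact for the read counts, covers counting error only. Across the Pdgfra gate in GFP+ cells *Col20a1* fell, by 2.43 ± 0.31 (adjusted p = 1.48e-04) on the log2 scale.

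*Col19a1*, a rare chain found in embryonic muscle and at neuromuscular sites, was close to the floor outside 1 population, with 30.2 and 31.0 in GFP+ Pdgfra-, 1.80 and 1.01 in GFP+ Pdgfra+, 0.126 and 0.446 in GFP- Pdgfra+ and 0.144 and 0.118 in GFP- Pdgfra- cells. Both GFP- Pdgfra- libraries had 0 reads, so its level in GFP+ Pdgfra- cells was at least 33.4-fold higher than the value of 3 reads per library there. The difference across the Pdgfra gate in GFP+ cells was -3.74 ± 0.38 (adjusted p = 2.79e-05). The Schwann lineage list, 7 of 7 genes measured, summed to 395 and 362 in GFP+ Pdgfra-, 178 and 162 in GFP+ Pdgfra+, 69.5 and 69.6 in GFP- Pdgfra+ and 22.3 and 38.8 in GFP- Pdgfra- cells. *Erbb3* led it in GFP+ Pdgfra- cells at 131 in both libraries, and *Ngfr* in the Pdgfra+ populations. *Foxd3* was at 0 reads in both GFP- Pdgfra- libraries and in replicate 2 of both Pdgfra+ populations, *Sox10* and *Dhh* in GFP- Pdgfra+ replicate 1, and *Cdh19* in replicate 2 of both GFP- populations. The skeletal muscle list, 9 of 9 measured, summed to 789 and 784 in GFP+ Pdgfra-, 59.8 and 75.7 in GFP+ Pdgfra+, 41.5 and 34.6 in GFP- Pdgfra+ and 26.9 and 16.4 in GFP- Pdgfra- cells, with *Pax7* leading GFP+ Pdgfra- cells at 296 and 336, *Myf5* at 0 reads in GFP- Pdgfra+ replicate 2 and *Ckm* in GFP- Pdgfra- replicate 2. Both lists were thus highest in the population where *Col20a1* and *Col19a1* were highest, as was the pericyte and smooth muscle list given below. The part of any of these lists in those values was not tested.

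The 3 chains of type IX collagen, which coats type II fibrils in cartilage, reached at most 72.0 in any library. *Col9a1* had 14.0 and 72.0 in GFP- Pdgfra+, 28.3 and 42.8 in GFP- Pdgfra-, 3.18 and 1.58 in GFP+ Pdgfra+ and 0.121 and 3.22 in GFP+ Pdgfra- cells, *Col9a2* had 5.17 and 12.3 in GFP- Pdgfra+, 7.61 and 6.48 in GFP- Pdgfra-, 2.35 and 1.58 in GFP+ Pdgfra+ and 1.82 and 2.44 in GFP+ Pdgfra- cells, and *Col9a3* had 14.0 and 65.8 in GFP- Pdgfra+, 24.3 and 47.0 in GFP- Pdgfra-, 4.83 and 4.74 in GFP+ Pdgfra+ and 7.16 and 12.5 in GFP+ Pdgfra- cells. As with *Col2a1*, GFP- Pdgfra+ replicate 2 exceeded replicate 1 for each chain. All 3 fell with GFP among Pdgfra- cells, *Col9a1* by the most, -4.04 ± 0.71 (adjusted p = 4.22e-04). Within Pdgfra+ cells *Col9a1*, -3.33 ± 0.71 (adjusted p = 0.0177), and *Col9a3*, -2.45 ± 0.56 (adjusted p = 0.0258), were called lower, and without GFP- Pdgfra+ replicate 2 they gave -2.19, adjusted p = 0.201 and -1.37, adjusted p = 0.219. The adjusted p of *Col9a1* was 0.0743 and 0.125 without GFP+ Pdgfra+ replicate 1 and 2, and that of *Col9a3* was 0.0645 to 0.125 without any of the 4 GFP+ libraries. *Col9a1* also lost its call there with no trend (adjusted p = 0.0912), voom (adjusted p = 0.116), DESeq2 (adjusted p = 0.0804) or a pseudocount of 0.1 (adjusted p = 0.0993), and *Col9a3* with no trend (adjusted p = 0.115), only the compared populations (adjusted p = 0.0776) or voom (adjusted p = 0.133). The calls of *Col9a2* and *Col9a3* among Pdgfra- cells, -1.36 ± 0.44 (adjusted p = 0.0196) and -1.73 ± 0.56 (adjusted p = 0.0210), were also lost on leaving out libraries: any of the 4 for *Col9a2* (adjusted p 0.0531 to 0.106), and GFP+ Pdgfra- replicate 1 (0.168) or GFP- Pdgfra- replicate 2 (0.147) for *Col9a3*. The first was also lost with DESeq2 (adjusted p = 0.0547) and the other with no trend (adjusted p = 0.0666). *Col9a3* shares 234 exonic bases with *Tcfl5* on the other strand, and reads without strand from the pair cannot be told apart.

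Network collagens differed from one another. *Col8a1*, a chain of type VIII, which lies in vessel walls and under endothelia, had 167 and 196 in GFP- Pdgfra+, 57.3 and 72.0 in GFP+ Pdgfra+, 8.86 and 8.36 in GFP+ Pdgfra- and 3.30 and 3.18 in GFP- Pdgfra- cells. GFP- Pdgfra+ libraries were more than those of any other population. The GFP difference within Pdgfra+ cells was -1.48 ± 0.22 (adjusted p = 0.00211), and it was lost only without GFP- Pdgfra+ replicate 2 (-1.36, adjusted p = 0.0610). Among Pdgfra- cells it was 1.18 ± 0.22 (adjusted p = 5.84e-04), a call that quantile normalisation ended (0.53, adjusted p = 0.0641). *Col8a2*, the partner chain, had 47.3 and 46.5 in GFP- Pdgfra+, 12.6 and 14.2 in GFP+ Pdgfra+, 0.431 and 3.89 in GFP- Pdgfra- and 0.364 and 0.386 in GFP+ Pdgfra- cells. GFP+ Pdgfra- cells had 1 read in each library, and GFP+ Pdgfra+ cells had 53.0 (95% interval 14.3 to 444) times their level. *Col10a1*, the chain of hypertrophic cartilage, had 63.9 and 73.5 in GFP- Pdgfra-, 32.2 and 11.1 in GFP+ Pdgfra+, 15.5 and 14.1 in GFP- Pdgfra+ and 14.2 and 27.9 in GFP+ Pdgfra- cells. Both GFP- Pdgfra- libraries exceeded the other 6; by mean, only *Col10a1* and *Col4a3* were highest in that population. Its Pdgfra difference in GFP- cells was -2.14 ± 0.41 (adjusted p = 7.02e-04). Its GFP difference among Pdgfra- cells, -1.73 ± 0.41 (adjusted p = 0.00357), missed the threshold without GFP+ Pdgfra- replicate 1 (-1.27, adjusted p = 0.0638). *Col10a1* shares 18 exonic bases with *Nt5dc1* on the other strand.

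Of the basement membrane collagens, the abundant chains *Col4a1* and *Col4a2* were high in 3 populations and low in GFP- Pdgfra- cells. *Col4a1* had 1083 and 1289 in GFP+ Pdgfra+, 1016 and 1289 in GFP+ Pdgfra-, 848 and 935 in GFP- Pdgfra+ and 31.7 and 58.1 in GFP- Pdgfra- cells. GFP+ Pdgfra+ and GFP+ Pdgfra- libraries overlapped, and GFP- Pdgfra- libraries were far below. *Col4a2* had 722 and 772 in GFP+ Pdgfra+, 652 and 874 in GFP+ Pdgfra-, 709.9 and 715 in GFP- Pdgfra+ and 30.3 and 58.6 in GFP- Pdgfra- cells. For this chain the GFP+ Pdgfra- libraries lay on either side of all Pdgfra+ libraries. The GFP differences among Pdgfra- cells were 4.70 ± 0.23 (adjusted p = 8.65e-09) for *Col4a1* and 4.13 ± 0.24 (adjusted p = 3.85e-08) for *Col4a2*. Neither chain was called in the GFP difference within Pdgfra+ cells or in the Pdgfra difference within GFP+ cells, where limma, voom, edgeR and DESeq2 called 0 of the 6 basement membrane collagens and 1 had an unadjusted p below 0.05. The pericyte and smooth muscle list, 7 of 7 genes measured, was also lowest in GFP- Pdgfra- cells but, unlike these chains, stood highest in GFP+ Pdgfra- cells alone. It summed to 1920.4 and 2507 in GFP+ Pdgfra-, 615 and 518 in GFP+ Pdgfra+, 477 and 488 in GFP- Pdgfra+ and 75.4 and 130.1 in GFP- Pdgfra- cells. In GFP+ cells 5 genes of this list were called lower with Pdgfra and 0 higher, beside 11.1% and 13.1% of all genes. *Rgs5* led it in the Pdgfra- populations, at 731 and 1035 in GFP+ Pdgfra- cells, *Cspg4* or *Pdgfrb* led it elsewhere, and none of the 7 was at 0 reads in any library. Its part in the type IV values was not tested.

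The remaining type IV chains, which replace α1 and α2 in specialised membranes such as those of kidney and muscle, were scarce. *Col4a5* had 23.1 and 17.7 in GFP- Pdgfra+, 11.5 and 13.9 in GFP+ Pdgfra+, 5.46 and 9.65 in GFP+ Pdgfra- and 1.01 and 0.354 in GFP- Pdgfra- cells. GFP- Pdgfra- libraries held 3 and 1 reads, and GFP- Pdgfra+ cells had 39.5 (95% interval 15.1 to 147) times their level. *Col4a3* had 2.15 and 2.71 in GFP- Pdgfra-, 0.967 and 2.16 in GFP+ Pdgfra+, 0.630 and 1.63 in GFP- Pdgfra+ and 0.121 and 0.386 in GFP+ Pdgfra- cells, *Col4a4* had 1.80 and 2.73 in GFP+ Pdgfra+, 1.64 and 3.12 in GFP- Pdgfra+, 2.06 and 2.96 in GFP+ Pdgfra- and 0.144 and 1.06 in GFP- Pdgfra- cells, and *Col4a6* had 2.90 and 1.93 in GFP- Pdgfra+, 1.01 and 0.825 in GFP- Pdgfra-, 0.364 and 0.643 in GFP+ Pdgfra- and 0.967 and 0.144 in GFP+ Pdgfra+ cells. No library exceeded 3.12 for any of these 3, so differences among the populations were barely detectable at this depth. *Col4a3* was called lower in GFP+ than GFP- cells of the Pdgfra- gate, -1.46 ± 0.41 (adjusted p = 0.00979), with 1 read in the GFP+ libraries together, and not without GFP+ Pdgfra- replicate 1 (adjusted p = 0.0662) or GFP- Pdgfra- replicate 2 (adjusted p = 0.0611) or with DESeq2 (adjusted p = 0.0684). *Col4a4* was called higher in GFP+ cells of that gate, 1.18 ± 0.44 (adjusted p = 0.0377), and in Pdgfra+ cells of the GFP- gate, 1.102 ± 0.44 (adjusted p = 0.0456), calls that leaving out libraries ended at adjusted p up to 0.273 and 0.311. Both also failed with DESeq2 (adjusted p 0.194 and 0.196), edgeR (0.119 and 0.129), median centring (0.179 and 0.220), quantile normalisation (0.225 and 0.262) and a pseudocount of 5 (0.0527 and 0.0639), and the call in the GFP- gate with voom, mitochondrial genes left out or only the compared populations (0.0588, 0.0578 and 0.0587).

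Type VI collagen forms beaded filaments around cells. Its main chains, α1 to α3, moved together. *Col6a1* had 2212 and 2325 in GFP- Pdgfra+, 1403 and 1415 in GFP+ Pdgfra+, 365 and 452 in GFP+ Pdgfra- and 47.5 and 50.1 in GFP- Pdgfra- cells, *Col6a2* had 2493 and 2414 in GFP- Pdgfra+, 1430.0 and 1404 in GFP+ Pdgfra+, 267 and 311 in GFP+ Pdgfra- and 33.2 and 64.0 in GFP- Pdgfra- cells, and *Col6a3* had 3493 and 3638 in GFP- Pdgfra+, 2173 and 2104 in GFP+ Pdgfra+, 278 and 355 in GFP+ Pdgfra- and 64.2 and 92.1 in GFP- Pdgfra- cells. For each chain the 4 populations kept 1 order without overlap, with GFP- Pdgfra+ cells at the top. Within Pdgfra+ cells GFP+ cells had less *Col6a1*, -0.69 ± 0.13 (adjusted p = 0.00735), and less *Col6a3*, -0.74 ± 0.17 (adjusted p = 0.0234). *Col6a2*, -0.79 ± 0.22 (adjusted p = 0.0663), did not reach the threshold. The *Col6a1* call was lost without GFP+ Pdgfra+ replicate 1 or either GFP- Pdgfra+ library (adjusted p 0.0623 to 0.1005) and the *Col6a3* call without any of the 4 (adjusted p 0.109 to 0.176). The *Col6a1* call also ended with no trend (adjusted p = 0.133) or quantile normalisation (-0.43, adjusted p = 0.08501), and that of *Col6a3* with no trend (adjusted p = 0.178) or quantile normalisation (-0.44, adjusted p = 0.164). Among Pdgfra- cells the same genes were higher in GFP+ cells, *Col6a1* by 3.03 ± 0.13 (adjusted p = 2.76e-09) and *Col6a3* by 2.02 ± 0.17 (adjusted p = 7.64e-07).

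*Col6a6*, an α3-like chain of skin, muscle and nerve sheaths, kept a different profile. Its values were 403 and 398 in GFP- Pdgfra+, 300.5 and 371 in GFP+ Pdgfra-, 269.7 and 266 in GFP+ Pdgfra+ and 3.59 and 2.48 in GFP- Pdgfra- cells. GFP+ Pdgfra- libraries lay between those of the Pdgfra+ populations, and only GFP- Pdgfra- libraries were near the floor. The GFP difference among Pdgfra- cells, 6.39 ± 0.17 (adjusted p = 2.64e-10), was second to *Col20a1*, and the Pdgfra difference among GFP- cells, 6.65 ± 0.17 (adjusted p = 4.95e-11), was the largest of the 42. Neither the GFP difference within Pdgfra+ cells, -0.58 ± 0.17 (adjusted p = 0.0691), nor the Pdgfra difference within GFP+ cells, -0.32 ± 0.17 (adjusted p = 0.196), was called. *Col6a5*, the neighbouring α3-like gene, had 3.15 and 5.198 in GFP- Pdgfra+, 2.07 and 4.46 in GFP+ Pdgfra+, 0.144 and 0.118 in GFP- Pdgfra- and 0.121 and 0.129 in GFP+ Pdgfra- cells. Both Pdgfra- populations had 0 reads. Against the value of 3 reads per library, it was at least 3.73-fold higher in GFP+ Pdgfra+ than in GFP+ Pdgfra- cells and at least 4.56-fold higher in GFP- Pdgfra+ than in GFP- Pdgfra- cells.

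The multiplexins, collagens with heparan sulphate or chondroitin sulphate chains found in vessel, nerve and muscle basement membrane zones, both peaked in GFP+ Pdgfra- cells. *Col15a1* had 855 and 1087 in GFP+ Pdgfra-, 300.4 and 273 in GFP+ Pdgfra+, 207 and 209 in GFP- Pdgfra+ and 10.2 and 17.1 in GFP- Pdgfra- cells, and *Col18a1*, the source of endostatin, had 214 and 218 in GFP+ Pdgfra-, 80.6 and 67.0 in GFP- Pdgfra+, 65.9 and 46.7 in GFP+ Pdgfra+ and 4.74 and 8.37 in GFP- Pdgfra- cells. For both genes GFP+ Pdgfra- libraries lay above all others, and the Pdgfra+ populations came in opposite order. *Col15a1* rose with GFP among Pdgfra- cells by 6.08 ± 0.20 (adjusted p = 6.36e-10) and fell with Pdgfra among GFP+ cells, -1.75 ± 0.20 (adjusted p = 6.49e-05). The same differences of *Col18a1* were 4.89 ± 0.24 (adjusted p = 1.21e-08) and -1.94 ± 0.24 (adjusted p = 1.30e-04). Limma called 0 of both in the GFP difference within Pdgfra+ cells, as did voom, edgeR and DESeq2, with 1 at an unadjusted p below 0.05. The anchoring chain *Col7a1*, which ties skin epithelium to the dermis, was scarce, at 3.28 and 4.76 in GFP+ Pdgfra-, 2.07 and 1.87 in GFP+ Pdgfra+, 1.64 and 2.23 in GFP- Pdgfra+ and 0.431 and 1.30 in GFP- Pdgfra- cells; its difference of 1.45 ± 0.40 (adjusted p = 0.00890) among Pdgfra- cells was lost without GFP+ Pdgfra- replicate 2 or GFP- Pdgfra- replicate 1 (adjusted p 0.0654 and 0.0935, lowest first), with DESeq2 (0.106), median centring (0.0503) and quantile normalisation (0.122).

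Transmembrane collagens, which carry a membrane anchor and can be shed, were low. *Col13a1*, a component of cell adhesions and neuromuscular junctions, had 21.96 and 13.1 in GFP+ Pdgfra+, 5.17 and 3.71 in GFP- Pdgfra+, 1.82 and 0.900 in GFP+ Pdgfra- and 0.144 and 0.590 in GFP- Pdgfra- cells. Its GFP difference within Pdgfra+ cells, 1.74 ± 0.43 (adjusted p = 0.0366), was lost in 9 refits, 5 of which left out a library (adjusted p 0.0619 to 0.221); the others were mitochondrial genes left out (1.75, adjusted p = 0.0522), only the compared populations (adjusted p = 0.05203), DESeq2 (adjusted p = 0.0869) and a pseudocount of 0.1 (adjusted p = 0.1795). *Col23a1* had 35.7 and 35.8 in GFP- Pdgfra+, 14.5 and 16.8 in GFP+ Pdgfra+, 6.19 and 12.0 in GFP+ Pdgfra- and 1.01 and 4.13 in GFP- Pdgfra- cells, highest in GFP- Pdgfra+ cells. Its GFP difference among Pdgfra- cells, 1.59 ± 0.44 (adjusted p = 0.00835), missed the threshold without GFP+ Pdgfra- replicate 2 (1.165, adjusted p = 0.107) or GFP- Pdgfra- replicate 1 (0.91, adjusted p = 0.0766) and with quantile normalisation (0.95, adjusted p = 0.0874) or only the compared populations (adjusted p = 0.0535). *Col25a1*, found in neurons and developing muscle, had 26.6 and 25.1 in GFP- Pdgfra+, 15.7 and 13.2 in GFP+ Pdgfra-, 12.8 and 13.7 in GFP+ Pdgfra+ and 1.87 and 0.825 in GFP- Pdgfra- cells. The difference of 3.55 ± 0.32 (adjusted p = 1.36e-06) set the Pdgfra+ against the Pdgfra- cells without GFP. *Col17a1*, a hemidesmosome component of skin, had 14.0 and 12.7 in GFP+ Pdgfra-, 4.56 and 13.7 in GFP+ Pdgfra+, 6.68 and 12.0 in GFP- Pdgfra+ and 1.01 and 0.354 in GFP- Pdgfra- cells, and the GFP+ populations overlapped. With 3 and 1 reads in GFP- Pdgfra- cells, the level in GFP+ Pdgfra- cells was 25.6 (95% interval 9.69 to 95.5) times theirs.

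*Col28a1*, known from nerve, had values of 13.1 and 15.7 in GFP+ Pdgfra+, 6.19 and 4.24 in GFP+ Pdgfra-, 2.65 and 1.93 in GFP- Pdgfra+ and 0.431 and 2.24 in GFP- Pdgfra- cells. GFP+ libraries were higher than GFP- libraries in both gates, by 2.23 ± 0.45 (adjusted p = 0.0134) and 1.51 ± 0.45 (adjusted p = 0.0133). The first call was lost without any of the 4 Pdgfra+ libraries (adjusted p 0.0654 to 0.122), and the other without GFP+ Pdgfra- replicate 1 (adjusted p = 0.0985) or GFP- Pdgfra- replicate 1 (adjusted p = 0.141), with median centring (0.0584) and after quantile normalisation (0.154). The first also failed with a pseudocount of 0.1 (0.0722). *Emid2*, listed by RefSeq as *Col26a1*, was in the table under a symbol outside the rule and is not among the 42. It had 81.0 and 94.5 in GFP+ Pdgfra-, 8.70 and 11.4 in GFP+ Pdgfra+, 13.0 and 8.46 in GFP- Pdgfra+ and 1.29 and 2.71 in GFP- Pdgfra- cells, again highest in GFP+ Pdgfra- cells, with a GFP difference of 4.92 ± 0.33 (adjusted p = 1.55e-07) among Pdgfra- cells.

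Whether the GFP difference itself changed across the Pdgfra gate was tested as the interaction, the GFP difference within Pdgfra+ cells minus that within Pdgfra- cells. It was called positive for 5 of the 42 collagens, beside 19.1% of all genes, and negative for 26 of the 42, beside 25.2%. The median was -2.47 for the collagens and -0.16 over all genes, and median centring turned the latter to 0.27 and the share of all called genes that were positive from 43.1% to 59.7%, leaving the collagen counts at 5 and 26. Quantile normalisation put them at 0.10 and 50.01%, with 4 and 25 collagens. The positive count was 2 without GFP- Pdgfra+ replicate 1 or GFP+ Pdgfra- replicate 1, and 3 without GFP+ Pdgfra+ replicate 1 or 2, GFP+ Pdgfra- replicate 2 or GFP- Pdgfra- replicate 2. *Col11a2*, 3.23 ± 0.49 (adjusted p = 2.02e-04), had the largest positive interaction and kept its call throughout. *Col2a1* gave 2.86 ± 0.99 (adjusted p = 0.0336) and lost the call on 5 omissions (adjusted p 0.0573 to 0.186) and with no trend (adjusted p = 0.114), voom (adjusted p = 0.0651) or DESeq2 (adjusted p = 0.208). *Col4a3* gave 1.72 ± 0.58 (adjusted p = 0.0300) and lost it on 6 (adjusted p 0.0515 to 0.108) and with DESeq2 (adjusted p = 0.122) or edgeR (adjusted p = 0.0546). *Col10a1*, 2.07 ± 0.58 (adjusted p = 0.0125), lost it without GFP+ Pdgfra- replicate 1 (adjusted p = 0.0757), and *Col11a1*, 0.94 ± 0.27 (adjusted p = 0.0146), on 3 omissions (adjusted p 0.0710 to 0.0802) and with no trend (adjusted p = 0.0912) or quantile normalisation (0.69, adjusted p = 0.0521). The most negative was *Col6a6*, -6.97 ± 0.23 (adjusted p = 6.80e-09). *Col15a1*, *Col18a1* and *Col5a3* followed at -5.62, -5.28 and -5.28. All 11 fibrillar collagens were called, 3 positive and 8 negative. *Col12a1*, *Col6a1*, *Col6a3*, *Col3a1*, *Col5a3* and *Col8a1* were called lower with GFP in the Pdgfra+ gate and higher with GFP in the Pdgfra- gate. Each of the 6 lost its Pdgfra+ call under at least 1 alternative, and *Col8a1* its Pdgfra- call after quantile normalisation.

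Levels of different genes were compared per kilobase of exon, using the union of annotated exons of each gene (normalised value divided by kilobases). *Col1a1* to *Col1a2* stayed within 2.47 to 2.86 in all 8 libraries while the levels of both genes differed widely. Dividing by the length of the transcript with the longest coding sequence, a choice made after seeing the data, put the same ratio at 1.20 to 1.39, because the exon union of *Col1a2* is 12145 bases and that transcript 5347. *Col4a1* to *Col4a2* lay within 0.963 to 1.62, lowest in GFP- Pdgfra- cells. *Col3a1* to *Col1a1* was 0.116 and 0.149 in GFP+ Pdgfra+ cells and 0.524 and 0.549 in GFP- Pdgfra+ cells, with 0.332 and 0.356 in GFP+ Pdgfra- and 0.220 and 0.147 in GFP- Pdgfra- cells. The ratio thus separated the Pdgfra+ populations without overlap.

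Other pairs shifted more. *Col11a1* to *Col5a1*, whose chains can join the same fibrils, was 0.931 and 0.728 in GFP+ Pdgfra+ and 0.843 and 1.39 in GFP- Pdgfra- cells but 0.279 and 0.346 in GFP- Pdgfra+ and 0.320 and 0.240 in GFP+ Pdgfra- cells. *Col5a1* to *Col5a2* went from 1.68 and 1.72 in GFP+ Pdgfra+ to 8.45 and 6.00 in GFP- Pdgfra- cells. *Col6a6* to *Col6a3* was 1.72 and 1.67 in GFP+ Pdgfra- cells and at most 0.202 in any other library, so that the α3-like chain exceeded α3 itself in that population alone. *Col2a1* to *Col1a1* was 0.928 and 1.46 in GFP- Pdgfra- cells and at most 0.106 elsewhere. Per kilobase, *Col1a1* led every library except GFP- Pdgfra- replicate 2, where *Col2a1* did, at 125 against 85.4. In GFP+ Pdgfra- cells *Col4a1* and *Col15a1* were among the first 5, at 149 and 189 and 135 and 171.

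Genes that process and bind collagen were followed as 3 further lists, whose counts are to be read beside the all-gene shares of calls, 3.22% higher and 2.13% lower with GFP within Pdgfra+ cells, 30.1% and 23.6% within Pdgfra- cells, and with Pdgfra 13.1% and 11.1% in GFP+ and 32.9% and 26.8% in GFP- cells. Of 24 listed symbols of enzymes and chaperones that modify and fold the chains in the endoplasmic reticulum, 18 were measured. The 24 include older and newer names of the same gene, such as *Lepre1* and *P3h1*, and stand for fewer genes. The 18 summed to 3813 and 3061 in GFP+ Pdgfra+, 2442 and 2358 in GFP- Pdgfra+, 1066 and 1067 in GFP+ Pdgfra- and 362 and 397 in GFP- Pdgfra- cells, the order of the collagen shares. Within Pdgfra+ cells 4 were higher and 1 lower in GFP+ cells; within Pdgfra- cells 15 were higher and 0 lower by limma. Pdgfra+ cells were higher for 15 in the GFP+ gate and for 17 in the GFP- gate. *P4hb*, a subunit of prolyl hydroxylase, was the most abundant in every library and was not called within Pdgfra+ cells, 0.36 (adjusted p = 0.180). *Plod2*, a lysyl hydroxylase, *Serpinh1*, the chaperone HSP47, and *Fkbp10*, a prolyl isomerase, came next, with GFP differences of 0.93 (adjusted p = 0.0121), 0.94 (adjusted p = 0.0372) and 0.89 (adjusted p = 0.0275) in that gate. The gene that fell there, *P4ha3*, gave -2.02 (adjusted p = 0.00144).

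Of the proteases and oxidases that cleave procollagen and cross-link fibrils, 12 of 13 were measured, with sums of 3663 and 3123 in GFP+ Pdgfra+, 2617 and 2676 in GFP- Pdgfra+, 711 and 835 in GFP+ Pdgfra- and 142 and 171 in GFP- Pdgfra- cells. Within Pdgfra+ cells 2 were higher, and within Pdgfra- cells 8 were higher and 3 lower. The Pdgfra difference was called higher for 11 in GFP+ and 10 in GFP- cells. *Lox*, the lysyl oxidase of fibrils, rose with Pdgfra in GFP+ cells, 4.18 (adjusted p = 8.50e-07), as did *Loxl2*, 0.81 (adjusted p = 0.0288), *Pcolce*, an enhancer of procollagen cleavage, 3.104 (adjusted p = 9.95e-08), and *Bmp1*, the C-proteinase, 1.37 (adjusted p = 6.80e-04). *Bmp1* was also higher with GFP among Pdgfra+ cells, 0.90 (adjusted p = 0.0315). *Tll1* was at 0 reads in GFP+ Pdgfra- replicate 1. Of collagen receptors, 8 of 10 were measured, with sums of 1435 and 1229 in GFP+ Pdgfra+, 1311 and 1249.8 in GFP- Pdgfra+, 748 and 763 in GFP+ Pdgfra- and 391 and 333 in GFP- Pdgfra- cells. None was higher and 1 was lower with GFP in the Pdgfra+ gate, 6 were higher in the Pdgfra- gate, and with Pdgfra 4 were higher and 2 lower among GFP+ cells and 8 higher among GFP- cells. *Itgb1*, the shared β1 integrin, changed least, 0.53 (adjusted p = 0.00558) among GFP- cells, against 5.03 (adjusted p = 3.46e-09) for the receptor kinase *Ddr2*, 4.998 (adjusted p = 5.75e-07) for the collagen uptake receptor *Mrc2* and 3.81 (adjusted p = 1.42e-07) for *Itga10*.

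The remaining marker lists were low in most libraries. Endothelial genes, 5 of 5 measured and led by *Tek*, *Cdh5* or *Pecam1*, summed to 30.6 to 113 over the 8 libraries, with both ends in GFP- Pdgfra- cells. Myeloid genes, 7 of 7 measured, summed to 4.28 to 80.0, highest in GFP- Pdgfra- cells, with *Lyz2* or *Csf1r* the most abundant, *Elane* at 0 reads in 4 libraries, *Mpo* and *Ptprc* in 2 each and *S100a8* in 1. Osteoclast genes, 3 of 4 measured, were led by *Ctsk* in Pdgfra+ cells and by *Acp5*, at 97.2 and 108, in GFP- Pdgfra- cells, and summed to 7.89 to 113. Of 5 neuronal genes only *Tubb3* was measured, at no more than 3.73. It was at 0 reads in both GFP- Pdgfra+ libraries, GFP+ Pdgfra- replicate 2 and GFP- Pdgfra- replicate 1. Limma called *Tubb3* higher with GFP in Pdgfra+ cells, 1.70, and with Pdgfra in GFP+ cells, 1.35. In the GFP difference within Pdgfra+ cells limma called 0 of the endothelial and 0 of the erythroid genes. In the same comparison 0 myeloid and 1 osteoclast gene were higher, and 1 myeloid gene was lower. Of all genes, 3.22% were higher and 2.13% lower there. Within Pdgfra- cells all 7 erythroid and 4 of 7 myeloid genes were lower with GFP, beside 23.6% of all genes, and in GFP- cells 7 and 6 were lower with Pdgfra, beside 26.8%, where 30 and 31 collagens were higher. The erythroid medians were -6.82 and -7.33, and those of the myeloid genes -1.27 and -2.20. In GFP+ cells 2 of either list were lower with Pdgfra, beside 11.1%. None of either list was higher in any comparison.

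Several collagen genes are neighbours in the genome, and these need not share a profile. In NCBIM37, *Col4a1* and *Col4a2* lie head to head on chromosome 8 (chr8:11198423-11312826, minus strand, and chr8:11312805-11449287, plus strand) and overlap by 22 bases; their profiles were alike. *Col4a4* and *Col4a3* are head to head on chromosome 1 with a gap of 71 bases (chr1:82447298-82583424 and chr1:82583496-82718634), and *Col4a6* and *Col4a5* on chromosome X with a gap of 1308 bases (chrX:137599946-137908619 and chrX:137909928-138123778). Tail to tail on chromosome 1 lie *Col3a1* and *Col5a2*, 24614 bases apart (chr1:45368383-45406551 and chr1:45431166-45560127), of which *Col3a1* was higher in GFP- Pdgfra+ cells and *Col5a2* overlapped between the Pdgfra+ populations. *Col9a1* and *Col19a1*, 9151 bases apart (chr1:24184449-24259577 and chr1:24268729-24594311), went in opposite directions with GFP among Pdgfra- cells, -4.04 and 4.81. *Col6a6* and *Col6a5* share a strand of chromosome 9 with 27984 bases between them (chr9:105591747-105730415 and chr9:105758400-105862974), and *Col6a2* and *Col6a1* a strand of chromosome 10 with 85161 bases between them (chr10:76058507-76086375 and chr10:76171537-76188913). Chromosome 1 carries 7 of the 42.

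The coding sequences of the annotation carry glycine repeats, which the symbol rule did not use. Fibrillar collagens stood apart by the length of these, while the other classes overlapped, at 113 triplets or fewer. The longest unbroken run of triplets, each a glycine and 2 further residues, held 337 to 344 triplets in 9 of the 11 fibrillar collagens and 216 and 217 in *Col24a1* and *Col27a1*. Runs were 60 or 61 triplets at most in the network collagens and 39 to 66 in type IV chains, which carried 22 to 27 separate runs of at least 5 triplets. In multiplexins the longest run was 30. Exons whose length is a multiple of 9 bases, the length of a triplet, made up 74.6% to 88.5% of the coding exons of fibrillar collagens, 58.5% to 78.6% of those of transmembrane collagens and 0% of those of network collagens, which have 2 coding exons each. Only length was counted, and neither the reading frame nor the residues of these exons were examined.

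Promoters, the 250 bases before to 50 after a transcription start, were available for 34 members in 37 windows (RefSeq, GRCm38.p6). Their median G and C content was 60%, beside 52.7% over all 32851 windows. Counting both strands, TATAAA occurred in 5 of the 37 and in 13.6% of all windows, CCAAT in 12 and in 37.4%, and GGGCGG in 22 and in 35.7%. The sequences printed are those of a type I chain, of *Col3a1*, which was ordered differently over the populations, and of the head-to-head type IV pair, whose windows share 78 bases. Motif letters on either strand are in capitals. The *Col1a2* window (chr6:4505368-4505667, plus strand) holds 2 CCAAT and 2 GGGCGG, and the *Col3a1* window (chr1:45311288-45311587, plus strand) holds 1 TATAAA and neither of the others. *Col4a1* (chr8:11312777-11313076, minus strand) has 1 CCAAT and 1 GGGCGG, and *Col4a2* (chr8:11312555-11312854, plus strand) has 1 CCAAT and 3 GGGCGG. A match describes the letters only and shows no binding.
Col1a2: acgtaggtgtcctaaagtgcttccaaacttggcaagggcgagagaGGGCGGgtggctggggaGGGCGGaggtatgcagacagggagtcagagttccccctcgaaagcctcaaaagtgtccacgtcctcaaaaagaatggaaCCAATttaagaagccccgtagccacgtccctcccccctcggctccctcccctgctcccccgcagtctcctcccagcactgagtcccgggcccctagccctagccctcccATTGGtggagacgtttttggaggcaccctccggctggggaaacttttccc
Col3a1: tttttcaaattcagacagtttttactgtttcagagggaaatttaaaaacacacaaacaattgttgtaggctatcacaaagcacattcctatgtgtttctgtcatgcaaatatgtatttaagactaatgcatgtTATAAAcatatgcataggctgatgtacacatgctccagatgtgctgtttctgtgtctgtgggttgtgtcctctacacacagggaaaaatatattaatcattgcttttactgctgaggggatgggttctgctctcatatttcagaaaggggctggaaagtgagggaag
Col4a1: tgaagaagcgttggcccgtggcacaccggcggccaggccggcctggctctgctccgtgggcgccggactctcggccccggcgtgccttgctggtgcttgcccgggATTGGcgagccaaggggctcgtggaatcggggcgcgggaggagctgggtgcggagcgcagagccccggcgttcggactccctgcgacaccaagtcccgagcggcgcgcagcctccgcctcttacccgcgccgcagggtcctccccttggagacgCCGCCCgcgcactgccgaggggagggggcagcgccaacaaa
Col4a2: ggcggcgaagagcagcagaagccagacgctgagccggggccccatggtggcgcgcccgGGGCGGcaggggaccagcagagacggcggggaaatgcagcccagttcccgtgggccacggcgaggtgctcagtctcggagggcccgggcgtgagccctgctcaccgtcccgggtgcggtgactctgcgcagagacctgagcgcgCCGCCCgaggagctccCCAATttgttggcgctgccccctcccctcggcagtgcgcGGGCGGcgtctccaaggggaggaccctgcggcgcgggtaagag

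Other exonic overlaps were short. Opposite-strand genes share 99 and 113 bases with *Col5a1*, 109 with *Col1a1*, 43 with *Col4a2*, 16 with *Col22a1* and 14 with *Col15a1*, and a microRNA gene shares 36 bases of the same strand with *Col7a1*. Reads from such stretches cannot be assigned without strand. All 42 collagens had more than 2 reads in at least 2 libraries. *Col4a6* alone was below the study's stated filter of over 2 reads per 1000000 in at least 2 libraries, with 1645 genes of the table in all.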

How the data were processed

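Messenger RNA of 4 sorted populations was measured in 8 libraries, 2 per population. Per the submitters' notes, reads were trimmed with cutadapt and assigned with RSEM 1.17 to the NCBIM37 annotation of Ensembl 65. The deposited signal values are gene counts that the authors normalised to an effective library size, in linear units. From these values whole reads were recovered (100% of values within 0.05 of a whole read after the 0.5 offset), 3221217 to 5302762 per library. At that depth 3 reads are worth 0.825 to 1.04 units.

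Populations were compared with limma 3.58.1 in R 4.3.3 on log2(value + 1), with 1 coefficient per population and a mean-variance trend. The study used voom, which was run here as an alternative because the table holds normalised values. Other alternatives were edgeR 4.0.16 and DESeq2 1.42.0 on recovered reads, pseudocounts of 0.1 and 5, a filter on low values, a replicate block, no trend, median centring, quantile normalisation, mitochondrial genes left out, only the compared populations, and each library left out. A second gene length and a collagen share without both type I chains were added after the data had been seen. Tables were handled in Python 3.11.15 with pandas 2.3.3 and numpy 2.4.6, and figures drawn with matplotlib 3.10.9.

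All 42 members are accounted for. Values in every library are given for the most abundant members of each class, chains of heterotrimers and the called members with the largest changes. Lists covered collagen modification and folding, cleavage and cross-linking, receptors, and markers of osteoblasts, chondrocytes, tendon, skeletal muscle, the Schwann lineage, pericytes and smooth muscle, endothelium, erythroid, myeloid and osteoclast cells and neurons. Members and lists were chosen with earlier results of these data known.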

Additional observations from a re-analysis of the deposited data

Results flagged for a closer look

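The GFP difference of many collagens depended on the Pdgfra gate, a difference between groups found by the interaction term of limma. It was positive for 5 of the 42 collagens, beside 19.1% of all genes, and negative for 26 of the 42, beside 25.2%. The positive ones were *Col11a1* (0.94), *Col4a3* (1.72), *Col10a1* (2.07), *Col2a1* (2.86) and *Col11a2* (3.23), on the log2 scale. All of these but *Col11a2* lost the call under at least 1 alternative, and leaving out 1 library took the count to as few as 2. The most negative were *Col6a6* (-6.97), *Col15a1* (-5.62), *Col18a1* (-5.28) and *Col5a3* (-5.28). Further collagens were called in opposite directions in the Pdgfra+ and Pdgfra- gates, with interactions of -2.51 for *Col12a1*, -3.72 for *Col6a1*, -2.75 for *Col6a3*, -4.00 for *Col3a1* and -2.66 for *Col8a1*. *Col5a3* was also called in opposite directions. Each of the 6 lost its Pdgfra+ call under at least 1 alternative, and *Col8a1* its Pdgfra- call after quantile normalisation. What brought these differences about was not tested.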

How the results depend on the processing

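Collagens had 142 calls, 111 in the pairwise comparisons and 31 interactions. Alternatives were followed for 125 of them, and 17 interactions were not. Of the 125, 97 kept call and direction under every alternative with a test, and 28 lost the call at least once, of which 1 reversed. Without replicate 1, and likewise without replicate 2, 1 library per population remained and no test was possible; 48 of the 125 log2 differences then moved by more than 1 standard error, 77 did not and 0 reversed. The reversal was *Col3a1* in the GFP difference within Pdgfra+ cells, at 0.0401 after quantile normalisation. The count of collagens lower in that comparison, 8, was 15 with a pseudocount of 5, 1 without the mean-variance trend, 5 after quantile normalisation, 13 with only the compared populations, 14 with voom and 13 with DESeq2. Leaving out 1 library gave 0 to 14 lower and 5 to 9 higher. Within Pdgfra- cells the lower count, 6, was 2 to 7 on leaving out 1 library, and 8 with median centring, 8 with quantile normalisation and 8 with edgeR. The lower count across the Pdgfra gate in GFP- cells, 1, was 2 with median centring and 2 with quantile normalisation. Positive interactions, 5, were 7 with a pseudocount of 5, 3 without the trend, 3 with DESeq2 and 2 to 5 on leaving out a library. The cause of these shifts was not tested.

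The mean collagen shares were 11.8, 7.51, 1.85 and 0.329% with mitochondrial genes left out of the total and 5.62, 4.76, 1.099 and 0.162% without *Col1a1*, in the order GFP+ Pdgfra+, GFP- Pdgfra+, GFP+ Pdgfra- and GFP- Pdgfra-. Without both type I chains, added after the data had been seen, they were 2.61, 3.58, 0.8595 and 0.134%, so the order of the first 2 turned. With the length of 1 transcript, added after the data had been seen, the mean *Col1a1* to *Col1a2* ratio went from 2.65 to 1.29 and that of *Col6a1* to *Col6a2* from 2.103 to 1.07, since the exon unions are longer.

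With a replicate block the lower count within Pdgfra+ cells was 11 and the F count 41, and no other count changed. The labels do not say that equal numbers mark a shared litter. The paper's methods state that an independent set of samples came from the pooled bones of several littermates. Which libraries form a set is not given there, so those of equal number may share a pool. Deviations of libraries with the same number correlated at 0.00433 to 0.0812 over all genes and at -0.00998 to 0.625 over the 42 collagens. In the reported fit libraries of equal number were treated as sharing only a number. With the block all 125 followed calls were kept.

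With 2 pools per population, small changes cannot be resolved, and scarce chains such as *Col4a3*, *Col4a4* and *Col4a6* had at most 11 reads in any library. Replicates differed beyond read sampling, with chi-square per degree of freedom of 4.12 to 9.12. Sorted populations are mixtures, amplified RNA was sequenced, and counts carry no strand.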
